A study of Mus musculus with 2 samples.

Results

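The genes described are 30 enzymes, regulators and carriers of lipid synthesis, taken by symbol from a fixed list out of 31053 genes in the matrices. The sterol arm has 21 of them, which lead from acetyl-CoA through mevalonate, squalene and lanosterol to cholesterol or govern that route. The fatty acid arm has 9, which make, lengthen and desaturate fatty acids. The 2 libraries hold cells of adult mouse lung that were CD45-positive and not labelled by a CD45 antibody given intravenously 3 minutes before death, which marks cells inside blood vessels. One library came from tamoxifen-injected and the other from oil-injected mice, all carrying Gli1creERT and floxed Hhip. The Cre is driven by Gli1, a gene known from Hedgehog-responsive, mainly mesenchymal cells, and Hhip, an antagonist of Hedgehog ligands, is the floxed gene in both groups. How many animals stand behind each library is not given in the labels, and no group has oil or tamoxifen without these alleles.

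Cholesterol synthesis is controlled by SREBP2, the product of Srebf2. When membranes of the endoplasmic reticulum are low in sterol, its precursor is carried to the Golgi, cleaved, and raises transcription of nearly every enzyme of the route, while Insig1 protein holds the precursor back when sterol is ample. SREBP1, from Srebf1, acts mainly on fatty acid synthesis, and the LXR receptors, which sense oxysterols, raise Srebf1 and the cholesterol exporters. In the lung, alveolar macrophages take up and break down surfactant, a mixture rich in phospholipid and cholesterol, and so handle much lipid from outside the cell.

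The bases upstream of 4 sterol arm genes are shown because sterol synthesis genes are read from promoters that pair a sterol response element with a CCAAT box. They are the 250 bases before the RefSeq start on GRCm38.p6, 5′ to 3′ on the gene's strand, with CCAAT on either strand in capitals and, in Hmgcs1, the element TCACNCCAC also in capitals. Hmgcs1 lies at chr13:119690101-119690350, plus strand, Idi1 at chr13:8885356-8885605, plus strand, Cyp51 at chr5:4104698-4104947, minus strand, and Insig1 at chr5:28071162-28071411, plus strand.
Hmgcs1: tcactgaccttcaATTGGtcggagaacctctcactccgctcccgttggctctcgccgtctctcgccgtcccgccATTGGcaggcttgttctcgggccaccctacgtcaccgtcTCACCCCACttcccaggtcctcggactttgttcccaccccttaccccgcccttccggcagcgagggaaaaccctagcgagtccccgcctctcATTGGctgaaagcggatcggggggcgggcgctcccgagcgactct
Idi1: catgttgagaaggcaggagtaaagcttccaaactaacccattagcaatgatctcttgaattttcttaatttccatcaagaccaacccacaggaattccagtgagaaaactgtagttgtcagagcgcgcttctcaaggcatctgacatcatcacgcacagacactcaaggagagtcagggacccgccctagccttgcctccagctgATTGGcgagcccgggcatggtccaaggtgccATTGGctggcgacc
Cyp51: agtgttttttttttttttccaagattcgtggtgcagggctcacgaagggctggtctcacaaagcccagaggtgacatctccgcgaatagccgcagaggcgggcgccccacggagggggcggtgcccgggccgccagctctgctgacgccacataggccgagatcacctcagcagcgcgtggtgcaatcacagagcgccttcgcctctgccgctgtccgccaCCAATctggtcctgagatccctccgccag
Insig1: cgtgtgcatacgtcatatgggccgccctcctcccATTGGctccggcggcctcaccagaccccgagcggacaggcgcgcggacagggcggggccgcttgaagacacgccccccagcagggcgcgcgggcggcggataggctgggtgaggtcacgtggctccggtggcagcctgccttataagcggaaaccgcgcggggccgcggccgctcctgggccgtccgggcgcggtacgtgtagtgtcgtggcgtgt

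Promoter windows, which run from 250 bases before to 50 after the start, were found for 23 of the 30 genes, 17 of the sterol arm and 6 of the fatty acid arm. CCAAT on either strand was present in 16 of 17 sterol arm genes and 3 of 6 fatty acid arm genes, against 41.1% of 27025 genes. GGGCGG, the core of the Sp1 motif, had the same counts, 16 of 17 and 3 of 6, against 38.2% of genes. TCACNCCAC was found in Hmgcs1 alone, on the plus strand with its first base at position -137, against 1.44% of genes. These are letter matches in a short window and say nothing of binding, and sites outside the window were not searched.

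The tamoxifen library had 12980 barcodes and 83730550 UMIs, against 10342 barcodes and 57704412 UMIs in the oil library. Barcodes with at least 300 genes and under 10% mitochondrial UMIs numbered 10138 (78.1%) in tamoxifen and 6794 (65.7%) in oil, with medians of 6431 UMIs in tamoxifen and 6360.5 in oil. Hhip had 30 UMIs in the whole tamoxifen library and 50 in the oil library, and Gli1 had 9 in each, too few to check the deletion. The libraries share 41 barcode sequences, 18 of them among kept cells. Each group is a single library, so no replicate exists: every interval given is an exact 95% interval for counting error alone, no test across animals was possible, and animal, library and treatment cannot be told apart.

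Cells were assigned to 8 gates by a few genes each, and 1 cell may pass several: 29.7% of gated cells did so with tamoxifen and 34.6% with oil. Results are therefore given for all cells of a gate and, only where stated, also for cells that passed that gate only. The alveolar macrophage gate (Krt79 and Plet1) held 2507 tamoxifen and 476 oil cells, of which 1412 tamoxifen and 174 oil cells passed no other gate. Its 7 alveolar macrophage markers, such as Marco, Siglecf and Fabp1, summed to 9309 UMIs per 1000000 UMIs of the gate (CPM) with tamoxifen and 9197 with oil. In cells of that gate only they summed to 11032 CPM with tamoxifen and 11001 with oil. These sums rest mainly on Chil3, at 6897 CPM with tamoxifen and 7622 with oil over all cells of the gate, and single markers differed. Fabp1 had 700 CPM with tamoxifen and 332 with oil, and 927 CPM with tamoxifen and 665 with oil in cells of that gate only. Ear2 had 1169 CPM with tamoxifen and 853 with oil, and 1448 CPM with tamoxifen and 1558 with oil in cells of that gate only. A list of 7 monocyte markers, with Lyz2, which alveolar macrophages are known to express too, summed to 9558 CPM with tamoxifen and 6795 with oil in the gate, and to 10787 CPM with tamoxifen and 9598 with oil in cells of that gate only. Its member Ly6c2 had 4.56 CPM with tamoxifen and 3.04 with oil in the gate, and Plac8 had 6.09 CPM with tamoxifen and 3.04 with oil. Ccr2, also of that list, went the other way, with 51.3 CPM with tamoxifen and 91.9 with oil. In cells of that gate only Ccr2 had 8.11 CPM with tamoxifen and 13.5 with oil. The part of these marker differences in the results was not tested. Other gates were mixed too. In the gate of Mgl2 and Cd209a, meant for type 2 dendritic cells (cDC2), the markers of C1q macrophages summed to 3671 CPM with tamoxifen and 3352 with oil, above cDC2 markers at 1698 CPM with tamoxifen and 2110 with oil. In the gate of Ly6i, Chil1 and Gpnmb, 55.0% of tamoxifen cells and 74.5% of oil cells also passed the alveolar macrophage gate, and neutrophil markers summed to 14855 CPM with tamoxifen against 2989 with oil. These gates are called by their genes here, and that of Mgl2 and Cd209a is marked cDC2 in the plots.

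In the alveolar macrophage gate, genes of cholesterol synthesis were higher with tamoxifen while the sum over genes of fatty acid synthesis differed by less than its counting interval. The sterol arm summed to 617 CPM (95% counting interval 608 to 627) with tamoxifen and 442 CPM (425 to 458) with oil, a log2 ratio of 0.48 (0.43 to 0.54). In cells of that gate only, it summed to 684 CPM with tamoxifen and 359 with oil, a log2 ratio of 0.93 (0.81 to 1.06). The fatty acid arm summed to 181 CPM with tamoxifen and 170 with oil, a log2 ratio of 0.09 (-0.00 to 0.19), and in cells of that gate only to 200 CPM with tamoxifen and 197 with oil, a log2 ratio of 0.02 (-0.15 to 0.20). The sterol arm held 3.41 times the UMIs of the fatty acid arm with tamoxifen and 2.60 times with oil, and in cells of that gate only 3.42 times with tamoxifen and 1.82 times with oil.

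Counts of members point the same way for the sterol arm. All 21 sterol genes had at least 20 UMIs over both libraries: 17 were higher and 4 lower with tamoxifen, their median log2 ratio was 0.56, 10 were at least 1.5-fold higher and none was 1.5-fold lower. Of all 12459 genes with at least 20 UMIs in the gate, 11.7% were 1.5-fold higher, 11.0% were 1.5-fold lower, and the median log2 ratio was 0.12. In cells of that gate only, 19 of 21 were higher, 13 at least 1.5-fold, 1 was 1.5-fold lower and the median was 0.85, beside 10.1% 1.5-fold higher, 9.24% lower and a median of 0.06 over 10860 genes. Of 8 fatty acid genes with 20 UMIs, 4 were higher and 4 lower, 1 was 1.5-fold higher and 1 lower, and the median was -0.18. The members were chosen as a pathway with earlier results of these data known, so these counts describe them and are not a test.

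**Figure D1:**
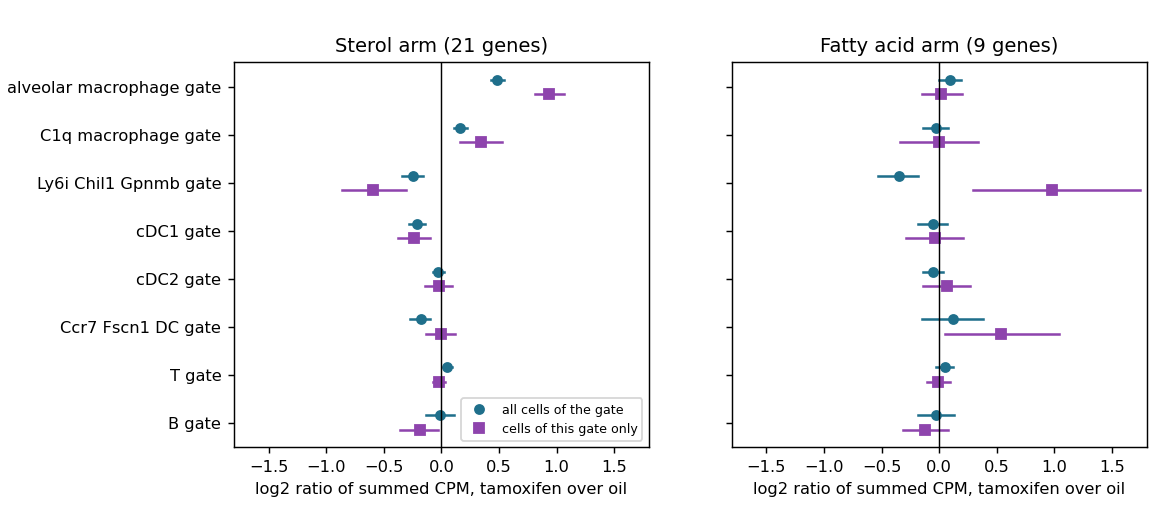
Log2 ratio of summed CPM, tamoxifen over oil, for the sterol arm (left) and the fatty acid arm (right) in each gate, for all cells of a gate (circles) and for cells of that gate only (squares), with exact 95% counting intervals as bars. The sterol arm of the alveolar macrophage gate stands at 0.48 and, in cells of that gate only, at 0.93, while its fatty acid arm lies at 0.09 and 0.02.

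Among the 7 genes of the mevalonate route, Hmgcs1, which makes HMG-CoA, had the highest log2 ratio over all cells of the gate, and Idi1 had it in cells of that gate only. Hmgcs1 had 2296 UMIs or 83.7 CPM with tamoxifen, against 223 UMIs or 35.7 CPM with oil, a log2 ratio of 1.23 (1.03 to 1.43). Cells of that gate only had 102 CPM with tamoxifen and 38.0 with oil, a log2 ratio of 1.42 (1.04 to 1.82). Idi1, the isomerase that turns isopentenyl into dimethylallyl diphosphate, had 53.3 CPM with tamoxifen and 31.7 with oil, a log2 ratio of 0.75 (0.54 to 0.97), and 60.6 CPM with tamoxifen against 19.9 with oil, or 1.60 (1.09 to 2.17), in cells of that gate only. Mvd, the decarboxylase that makes isopentenyl diphosphate, had 30.3 CPM with tamoxifen and 18.1 with oil, a log2 ratio of 0.75 (0.46 to 1.04), and 0.48 (0.02 to 0.97) in cells of that gate only, but -0.14 when each cell was thinned to 1500 UMIs. Pmvk, phosphomevalonate kinase, stood just under the 1.5-fold line at 45.9 CPM with tamoxifen and 31.2 with oil, or 0.56 (0.34 to 0.78). Acat2, the cytosolic thiolase that starts the route, and Mvk, mevalonate kinase, had log2 ratios of 0.20 (-0.30 to 0.74) and 0.16 (-0.29 to 0.64). Fdps, which makes farnesyl diphosphate, was the exception, with 23.4 CPM under tamoxifen and 28.2 under oil, a log2 ratio of -0.27 (-0.51 to -0.02), although in cells of that gate only it was 0.44 (-0.13 to 1.06).

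The step from farnesyl diphosphate to lanosterol commits the route to sterols, and its 3 genes were all higher with tamoxifen. They summed to 35.6 CPM with tamoxifen and 21.6 with oil, a log2 ratio of 0.72 (0.46 to 0.99), and 1.43 (0.84 to 2.08) in cells of that gate only. Fdft1, squalene synthase, had 18.5 CPM with tamoxifen and 9.92 with oil, a log2 ratio of 0.90 (0.51 to 1.30). Sqle, squalene epoxidase, had 12.7 CPM with tamoxifen and 8.32 with oil, a log2 ratio of 0.60 (0.18 to 1.05). Lss, lanosterol synthase, had 4.48 CPM with tamoxifen and 3.36 with oil, with an interval that spans 0 (0.42, -0.26 to 1.16).

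The 8 later enzymes, which trim lanosterol to cholesterol, were more mixed. They summed to 191 CPM with tamoxifen and 152 with oil, a log2 ratio of 0.32 (0.22 to 0.42). Cyp51, the first demethylase, had 55.6 CPM with tamoxifen and 34.7 with oil, a log2 ratio of 0.68 (0.47 to 0.89). Msmo1, which removes the methyl groups at carbon 4 of the sterol ring with Nsdhl and Hsd17b7, had 39.9 CPM with tamoxifen and 26.4 with oil, a log2 ratio of 0.59 (0.36 to 0.84). Its partner Hsd17b7 had 9.22 CPM with tamoxifen and 5.92 with oil, or 0.64 (0.14 to 1.18), whereas Nsdhl had 7.04 CPM with tamoxifen and 9.44 with oil, or -0.42 (-0.85 to 0.02), the lowest ratio in the arm. Ebp, the sterol isomerase, had 48.3 CPM with tamoxifen and 49.1 with oil, a log2 ratio of -0.02 (-0.20 to 0.16). Sc5d and Dhcr7, the desaturase and reductase near the end of the route, had 0.02 (-0.32 to 0.37) and 0.38 (0.00 to 0.77), and 1.07 (0.16 to 2.16) and 0.96 (0.16 to 1.89) in cells of that gate only. Tm7sf2, a sterol reductase, had 54 UMIs with tamoxifen and 10 with oil, too few to tell its ratio from 0 (0.30, -0.69 to 1.44).

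Among regulators and carriers, Insig1 had 67.4 CPM with tamoxifen and 39.4 with oil, a log2 ratio of 0.77 (0.58 to 0.97), and 1.13 (0.75 to 1.54) in cells of that gate only. Stard4, which carries sterol between membranes, had 21.8 CPM with tamoxifen and 13.6 with oil, a log2 ratio of 0.68 (0.35 to 1.03). Srebf2, whose protein drives the arm, had 49.5 CPM with tamoxifen and 55.9 with oil over all cells of the gate, a log2 ratio of -0.18 (-0.35 to -0.00). But Srebf2 had, in cells of that gate only, 43.1 CPM with tamoxifen and 21.2 with oil, a log2 ratio of 1.02 (0.51 to 1.57). Its direction there was not that over all cells of the gate, and the oil value came from 174 cells. The cDC1 gate had the highest Srebf2 of the 8 gates, with 85.4 CPM in tamoxifen and 96.9 in oil, and markers of cDC1 summed to 810 CPM with tamoxifen and 1239 with oil in the alveolar macrophage gate, but to 657 CPM with tamoxifen and 682 with oil in cells of that gate only. Any part of such cells in the Srebf2 ratios was not tested. Srebf1, counted in the fatty acid arm, had 18.4 CPM with tamoxifen and 17.4 with oil, a log2 ratio of 0.08 (-0.22 to 0.39).

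In the fatty acid arm the 4 chain-building enzymes summed higher with tamoxifen, at 131 CPM against 108 CPM with oil, and the desaturases summed lower. Acly, which supplies cytosolic acetyl-CoA from citrate to both arms, had 86.5 CPM with tamoxifen and 67.9 with oil, a log2 ratio of 0.35 (0.20 to 0.50), and 0.25 (-0.02 to 0.52) in cells of that gate only. Acaca, which makes malonyl-CoA, had 14.5 CPM with tamoxifen and 14.4 with oil, or 0.01 (-0.33 to 0.35), and Fasn, fatty acid synthase, had 11.9 CPM with tamoxifen and 15.8 with oil, or -0.41 (-0.74 to -0.07). Elovl6, which lengthens palmitate to stearate, had 18.0 CPM with tamoxifen and 9.92 with oil, a log2 ratio of 0.86 (0.47 to 1.26) that came to 0.34 (-0.21 to 0.94) in cells of that gate only and to -0.23 in male cells of the gate. The desaturases summed to 31.6 CPM with tamoxifen and 44.3 with oil, a log2 ratio of -0.49 (-0.68 to -0.29), and -0.85 (-1.20 to -0.48) in cells of that gate only. Scd2, which puts the first double bond into saturated chains, had 17.6 CPM with tamoxifen and 23.5 with oil, or -0.42 (-0.68 to -0.14), and 17.1 CPM with tamoxifen against 37.3 with oil, or -1.13 (-1.55 to -0.69), in cells of that gate only, where 1 oil cell held 37.9% of the 58 Scd2 UMIs. The direction differed between sexes, and that difference was not tested: the desaturases stood at -0.94 (-1.18 to -0.70) in female and 1.25 (0.78 to 1.76) in male cells of the gate, and at -1.67 (-2.09 to -1.24) and 2.28 (1.48 to 3.18) in female and male cells of that gate only. Scd2 stood at -1.70 (-2.17 to -1.20) in female and 0.96 (-0.06 to 2.13) in male cells of that gate only. A single cell held 22 of the 47 Scd2 UMIs (46.8%) of the 92 female oil cells of that gate only. Without barcodes of 100 or more alveolar type 2 UMIs, the male value of the desaturases in cells of that gate only was 0.25 (-0.69 to 1.27). This left 33 of the 139 male tamoxifen UMIs, and the male value of Scd2 was then 0.39 (-0.71 to 1.61). The 1 tamoxifen barcode so removed is also among the male cells of the whole gate, which had 210 desaturase UMIs. No male value of the desaturases without it is given for the whole gate.

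Of the remaining desaturases, Scd1 was found in 89 of 2507 tamoxifen and 42 of 476 oil cells of the gate without thinning. Fads1 was found in 141 tamoxifen and 48 oil cells. Scd1, which catalyses the same step as Scd2, had 7.98 CPM with tamoxifen and 10.2 with oil, or -0.36 (-0.77 to 0.07). A single tamoxifen barcode held 91 of its 219 Scd1 UMIs (41.6%), and the same barcode had 2136 UMIs of alveolar type 2 markers such as Sftpc, of which the median cell had 0. Alveolar type 2 markers summed to 159 CPM with tamoxifen and 198 with oil in the gate, and to 202 CPM with tamoxifen and 51.5 with oil in cells of that gate only. Fads1, which makes arachidonic acid, had 5.94 CPM with tamoxifen and 10.6 with oil, or -0.83 (-1.25 to -0.39), but 0.91 in male cells. Its counts in cells of that gate only were 34 UMIs with tamoxifen and 5 with oil, a log2 ratio of -0.31 (-1.67 to 1.41). Fads2, its partner, had 1 UMI with tamoxifen and 0 with oil in the gate and never more than 9 UMIs in any gate of either library, so no ratio is given.

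**Figure D2:**
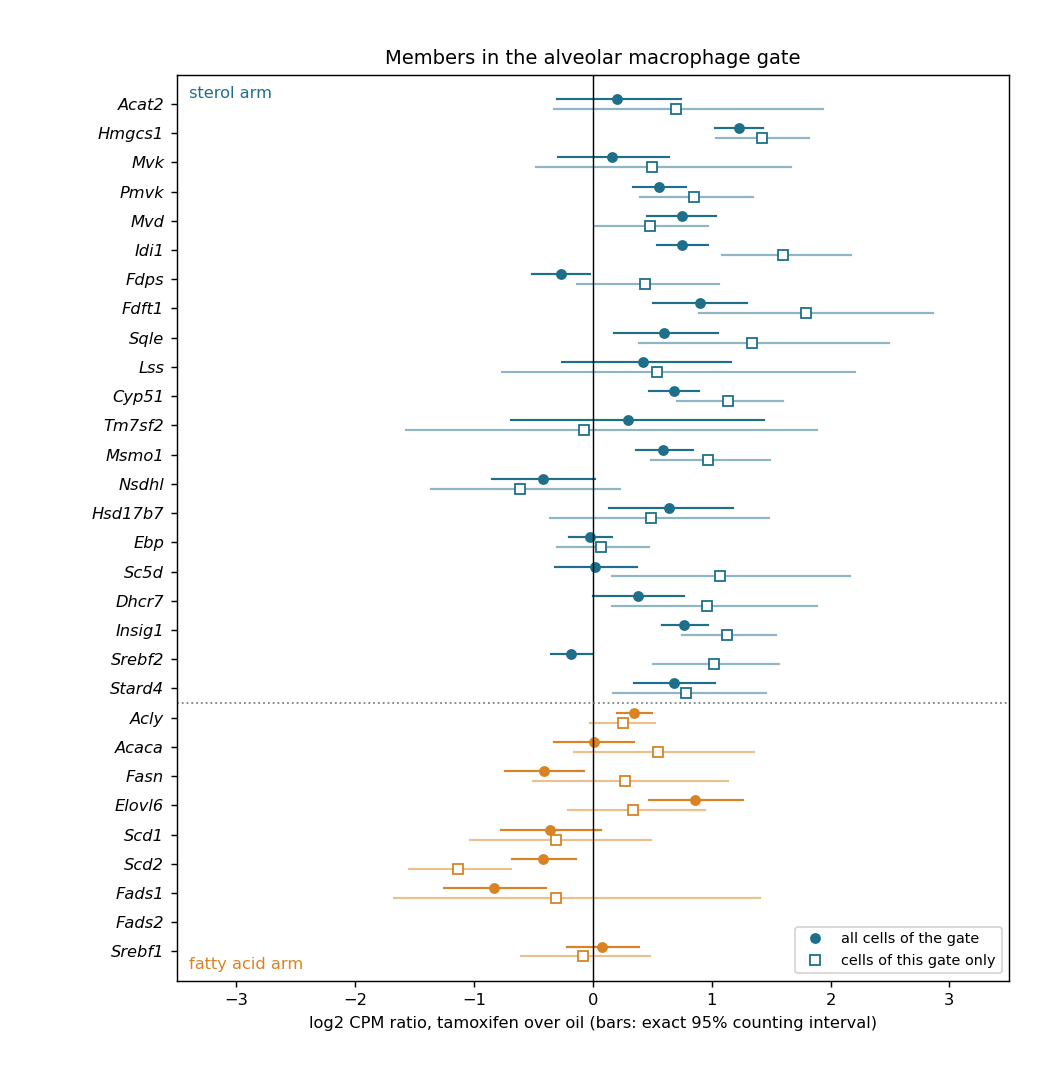
Log2 CPM ratio of each member in the alveolar macrophage gate, tamoxifen over oil, in pathway order, with sterol arm genes in blue above the dotted line and fatty acid arm genes in orange below it. Filled circles are all cells of the gate, open squares cells of that gate only, and bars exact 95% counting intervals: Hmgcs1 stands at 1.23 and 1.42, Srebf2 at -0.18 and 1.02, and Scd2 at -0.42 and -1.13. Fads2, with 1 UMI in all, has no point.

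The sterol difference was seen across many cells and in cells of either sex. After each cell was thinned to 1500 UMIs, 53.1% (51.1 to 55.1) of 2451 tamoxifen cells of the alveolar macrophage gate and 42.7% (38.2 to 47.4) of 468 oil cells had at least 1 sterol arm UMI. At least 3 such UMIs were found in 9.34% (8.22 to 10.6) of tamoxifen cells and 3.42% (1.97 to 5.49) of oil cells. Fatty acid arm UMIs were found in 23.3% of tamoxifen and 22.9% of oil cells. Without thinning, 92.9% of tamoxifen and 91.4% of oil cells had a sterol arm UMI, with medians of 10341 UMIs per cell in tamoxifen and 12636 in oil. Hmgcs1, after thinning to 1500 UMIs, was detected in 10.4% (9.22 to 11.7) of tamoxifen and 4.70% (2.97 to 7.03) of oil cells of the gate. Its lowest thinned share in any gate was 1.72% in cDC1 cells with tamoxifen and 1.31% in B cells with oil. In cells that were not thinned, its shares in the alveolar macrophage gate were 44.3% with tamoxifen and 29.6% with oil. Cells with Xist and no Y-linked UMIs, taken as female, made up 2002 of the tamoxifen and 289 of the oil cells, and cells with Y-linked UMIs and no Xist 212 of the tamoxifen and 111 of the oil cells. The sterol arm log2 ratio was 0.42 (0.35 to 0.49) in female and 0.49 (0.33 to 0.66) in male cells, and 0.85 (0.70 to 1.00) and 0.92 (0.61 to 1.24) in cells of that gate only. Cycling cells, with at least 2 UMIs of 6 proliferation genes, were 9.09% of the gate with tamoxifen and 12.8% with oil, and without them the log2 ratio was 0.56.

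**Figure D3:**
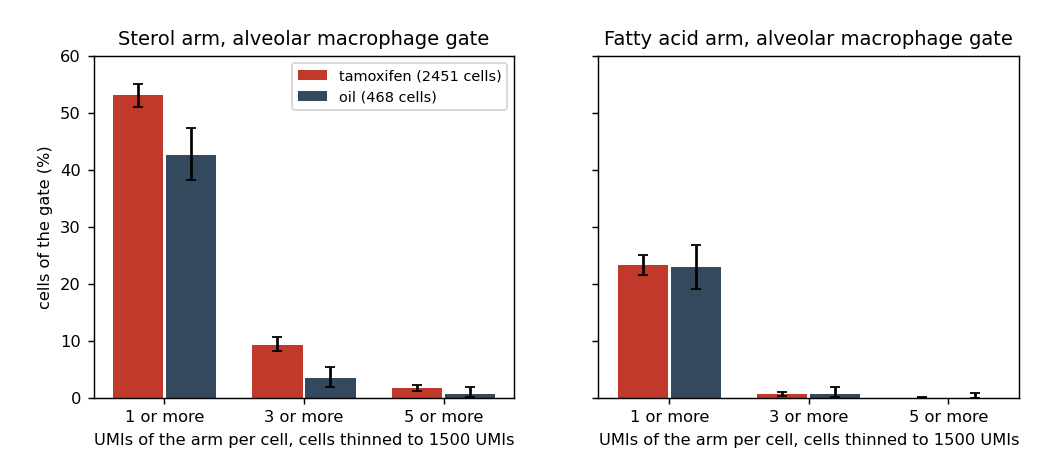
Share of cells of the alveolar macrophage gate, in percent, with at least 1, 3 or 5 UMIs of the sterol arm (left) or the fatty acid arm (right) after thinning to 1500 UMIs per cell, for tamoxifen (red) and oil (dark blue), with exact 95% binomial intervals. The tamoxifen bars are 53.1% and 9.34% against 42.7% and 3.42% for the sterol arm, and 23.3% against 22.9% at 1 UMI for the fatty acid arm.

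UMIs of the other sterol genes were also compared between cells with and without a UMI of 1 member, in sets of at least 20 cells with it. Over 18 combinations of gene, gate and library, the log2 ratio of the sterol genes was above 0 in 18, with 12 intervals above 0, and that of the fatty acid genes was above 0 in 14, with 2 intervals above 0. In some of these combinations the member was a fatty acid gene, Acly or Scd1, and no such ratio is given for all genes. Among tamoxifen cells of the alveolar macrophage gate only, thinned to 1500 UMIs, the 174 cells with a Hmgcs1 UMI had 1.26 UMIs of the other sterol genes per cell, against 0.776 in the 1194 cells without one, a log2 ratio of 0.70 (0.48 to 0.91). The same cells had 0.310 fatty acid arm UMIs per cell against 0.296, a log2 ratio of 0.07 (-0.37 to 0.49). For the 106 cells with an Idi1 UMI the log2 ratio of the other sterol genes was 1.06 (0.82 to 1.28), and for the 134 cells with Insig1 it was 0.64 (0.40 to 0.87). In T cells of that gate only, the 106 tamoxifen and 56 oil cells with an Insig1 UMI had log2 ratios of 0.76 (0.44 to 1.06) with tamoxifen and 0.98 (0.58 to 1.36) with oil. T cells with a Hmgcs1 UMI had 0.44 (0.06 to 0.80) with tamoxifen and 0.02 (-0.48 to 0.48) with oil. T cells with an Idi1 UMI had 0.49 (0.18 to 0.79) with tamoxifen and 0.70 (0.33 to 1.06) with oil for the sterol genes, and 0.88 (0.36 to 1.36) with tamoxifen and 1.01 (0.31 to 1.64) with oil for the fatty acid genes. In the Ccr7 and Fscn1 gate, cells with Idi1 had 0.68 (-0.01 to 1.36) with tamoxifen and 0.27 (-0.48 to 1.00) with oil for the other sterol genes. For the sterol genes, tamoxifen cells of the alveolar macrophage gate only with an Acly UMI had 0.24 (0.02 to 0.45). T cells with an Acly UMI had 0.21 (-0.04 to 0.46) with tamoxifen and 0.37 (0.04 to 0.69) with oil, and oil cells of the Mgl2 and Cd209a gate 0.35 (-0.36 to 0.98). B cells with a Scd1 UMI had 0.61 (0.07 to 1.14) with tamoxifen and 0.30 (-0.40 to 0.97) with oil. Cells share their library and the intervals treat them as independent, so these ratios describe the libraries. Fewer than 20 oil cells of the alveolar macrophage gate only had a UMI of these genes after thinning, and no value is given for oil.

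Lists of other genes of the route were read in the same gate. Of 20 genes that process SREBP or answer to sterol, 18 were higher and 2 lower with tamoxifen, 7 at least 1.5-fold higher and none 1.5-fold lower, beside 11.7% and 11.0% of all genes of the gate, with a median log2 ratio of 0.42 beside 0.12 over all genes, and in cells of that gate only 15 of 19 were higher with a median of 0.23 beside 0.06. Mbtps2, the protease that releases SREBP in the Golgi membrane, had 379 UMIs with tamoxifen and 50 with oil, a log2 ratio of 0.79 (0.36 to 1.24) and 1.13 in cells of that gate only. Lpin1, a phosphatidate phosphatase, had 336 CPM with tamoxifen and 190 with oil, or 0.82 (0.74 to 0.91), but 0.21 in cells of that gate only. Of 18 further fatty acid genes, 14 had 20 UMIs: 6 were higher and 8 lower, with a median of -0.10, and Acsl3, which activates fatty acids, was lowest with 3.28 CPM in tamoxifen and 9.44 in oil, or -1.53 (-2.01 to -1.03) and -2.49 in cells of that gate only. Of 12 LXR genes, 8 were higher and 4 lower with a median of 0.26, beside 0.12 over all genes. In cells of that gate only 4 were higher and 8 lower with a median of -0.07, beside 0.06. The share of all genes that were higher is not given, so these counts of higher and lower genes describe the lists alone.

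In the C1q macrophage gate (C1qa and C1qb), the sterol arm summed to 480 CPM with tamoxifen and 429 with oil, a log2 ratio of 0.16 (0.11 to 0.22), and 0.34 (0.16 to 0.53) in cells of that gate only. With tamoxifen 17 of 21 genes were higher and 4 lower, with a median of 0.14, and 3 were 1.5-fold higher and none 1.5-fold lower, beside 8.23% higher and 6.42% lower of all genes tested in the gate. The median log2 ratio was 0.07 over the 10631 genes with at least 20 UMIs in each library of the gate. Pmvk stood out with 51.4 CPM in tamoxifen and 27.4 in oil, a log2 ratio of 0.91 (0.72 to 1.10) and 0.84 in cells of that gate only. Fdft1 had 12.7 CPM with tamoxifen and 6.99 with oil, or 0.86 (0.47 to 1.26). The genes with most UMIs hardly differed: Ebp had 79.5 CPM in tamoxifen and in oil, and Srebf2 had 45.3 CPM with tamoxifen and 49.7 with oil. The fatty acid arm had 112 CPM with tamoxifen and 114 with oil, a log2 ratio of -0.03 (-0.14 to 0.08).

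In the Ly6i, Chil1 and Gpnmb gate, with 524 tamoxifen and 137 oil cells, both arms were lower with tamoxifen. The sterol arm had 574 CPM with tamoxifen and 683 with oil, a log2 ratio of -0.25 (-0.34 to -0.16), with 2 of 20 genes higher, 18 lower and a median of -0.46, beside a median of -0.07 over all genes. Of these, 4 were 1.5-fold lower and 1 was 1.5-fold higher, beside 10.5% and 12.3% of all genes tested. Cyp51 had 43.1 CPM with tamoxifen and 68.2 with oil, or -0.66 (-0.95 to -0.36), Sc5d had 15.2 CPM with tamoxifen and 23.9 with oil, or -0.65 (-1.15 to -0.14), and Acat2 had -0.86 (-1.66 to -0.01), which was 0.85 when cells were thinned. Stard4 stood at -0.62 (-1.12 to -0.10), with 16 UMIs in tamoxifen and 1 in oil and a log2 ratio of 1.75 in cells of that gate only. Pmvk went the other way, with 75.6 CPM in tamoxifen and 39.8 in oil, a log2 ratio of 0.92 (0.58 to 1.28). The fatty acid arm had 146 CPM with tamoxifen and 186 with oil, a log2 ratio of -0.35 (-0.53 to -0.18), and Scd2 had 15.2 CPM with tamoxifen and 26.4 with oil, or -0.80 (-1.28 to -0.30). Directions were not the same in every subset. The sterol arm stood at -0.59 (-0.86 to -0.31) and the fatty acid arm at 0.98 (0.29 to 1.74) in cells of that gate only, where 1 tamoxifen barcode with 2211 alveolar type 2 UMIs held all 88 Scd1 UMIs. In the 42 tamoxifen and 18 oil male cells of the gate the sterol arm stood at 0.37 (0.04 to 0.71). Alveolar macrophage markers summed to 7305 CPM with tamoxifen and 17950 with oil in this gate. These sums rest mainly on Chil3, at 5975 CPM with tamoxifen and 16044 with oil. Fabp1 had 287 CPM with tamoxifen and 335 with oil, Ear2 705 and 998, and Marco 104 and 287. The part of this mixture in the differences was not tested, and only 58 tamoxifen and 17 oil cells passed that gate alone.

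In the cDC1 gate (Xcr1 and Clec9a) the sterol arm had 342 CPM with tamoxifen and 396 with oil, a log2 ratio of -0.21 (-0.28 to -0.14), and -0.24 (-0.38 to -0.10) in cells of that gate only, with 6 of 20 genes higher and 14 lower. Among its genes, 3 were 1.5-fold lower and 1 was 1.5-fold higher, beside 4.54% and 10.0% of all genes tested. The sterol median was -0.16, beside 0.04 over the 9604 genes with at least 20 UMIs in each library of the gate. Idi1 had 18.5 CPM with tamoxifen and 32.6 with oil there, or -0.82 (-1.09 to -0.55), and -0.67 (-1.37 to 0.01) in cells of that gate only, while Sqle had 4.42 CPM with tamoxifen and 8.16 with oil, or -0.89 (-1.46 to -0.33). Mvd, with 41 UMIs in tamoxifen and 17 in oil, stood at 0.99 (0.14 to 1.90). The sterol arm log2 ratio was -0.03 (-0.07 to 0.02) in the Mgl2 and Cd209a gate, where no member was 1.5-fold different in either direction, beside 6.74% of genes higher and 4.97% lower.

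The T gate (Cd3d, Cd3e and Cd3g), the most numerous with 5127 tamoxifen and 3019 oil cells, had a sterol arm of 442 CPM with tamoxifen and 426 with oil, a log2 ratio of 0.05 (0.02 to 0.09), and -0.02 (-0.07 to 0.03) in cells of that gate only. Mvd was the only member 1.5-fold higher there and none was 1.5-fold lower, beside 9.31% and 7.66% of all genes. Mvd had 9.72 CPM in tamoxifen and 4.93 in oil, or 0.98 (0.66 to 1.31), and it came to 0.14 (-0.34 to 0.62) in cells of that gate only. In B cells the sterol arm had 375 CPM with tamoxifen and 379 with oil, a log2 ratio of -0.01 (-0.13 to 0.11), with 3 genes 1.5-fold higher and none lower, beside 15.8% and 4.74% of all genes. Hmgcs1 was one of them, at 24.8 CPM in tamoxifen and 14.6 in oil, or 0.76 (0.20 to 1.34), and it was -0.16 (-0.93 to 0.63) in cells of that gate only. The T gate was mixed over all its cells: T cell markers summed to 1899 CPM with tamoxifen and 1975 with oil, neutrophil markers to 3147 CPM with tamoxifen and 372 with oil, and the monocyte list to 3372 CPM with tamoxifen and 1646 with oil. In cells of that gate only T cell markers had 2866 CPM with tamoxifen and 2823 with oil, neutrophil markers 754 CPM with tamoxifen and 144 with oil, and the monocyte list 535 CPM with tamoxifen and 446 with oil. Cells that also passed the alveolar macrophage gate made up 11.5% of the T gate with tamoxifen and 2.68% with oil, and alveolar macrophage markers summed to 1790 CPM with tamoxifen and 490 with oil there.

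Dendritic cells with Ccr7 and Fscn1, a state known from migration to lymph nodes, had the highest sterol arm level of the 8 gates, at 899 CPM with tamoxifen and 1020 with oil, a log2 ratio of -0.18 (-0.27 to -0.10). In cells of that gate only the arm had 1068 CPM with tamoxifen and 1071 with oil, a log2 ratio of -0.00 (-0.13 to 0.12). Most of that lead was Idi1, with 801 tamoxifen and 908 oil UMIs. Without Idi1 the arm had 572 CPM (542 to 603) with tamoxifen and 612 (580 to 645) with oil there. It then had 564 CPM (555 to 573) with tamoxifen and 410 with oil in the alveolar macrophage gate, and 530 CPM with tamoxifen and 624 (590 to 660) with oil in the Ly6i, Chil1 and Gpnmb gate. The Ccr7 and Fscn1 gate thus stayed first with tamoxifen but not with oil, and the intervals of the leading gates overlapped in both libraries. Idi1 stood at 327 CPM with tamoxifen and 409 with oil, which is 6.13 times (tamoxifen) and 6.90 times (oil) its level in the next gate, and 475 CPM with tamoxifen and 473 with oil in cells of that gate only. After thinning to 1500 UMIs, Idi1 was found in 26.1% (19.9 to 33.0) of tamoxifen and 31.7% (24.8 to 39.4) of oil cells of this gate, and in the cDC1 gate in 2.15% of tamoxifen and 2.98% of oil cells. Fdps had 46.1 CPM with tamoxifen and 77.0 with oil there, or -0.74 (-1.10 to -0.39), and -0.81 in cells of that gate only, Mvk stood at -0.94 (-1.75 to -0.17) and Msmo1 at 0.73 (0.20 to 1.27). Of 18 genes tested 1 was 1.5-fold higher and 2 lower, beside 15.1% and 5.81% of all genes. The fatty acid arm had 110 CPM with tamoxifen and 101 with oil, or 0.12 (-0.15 to 0.38), and 0.54 (0.05 to 1.04) in cells of that gate only. The 7 markers of this state summed to 4300 CPM with tamoxifen and 5489 with oil.

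Over all cells of each gate, B cells had the highest fatty acid arm level, at 223 CPM with tamoxifen and 227 with oil, and Scd1 UMIs were most of it. With tamoxifen, for cells of 1 gate only, the level was 230 CPM in B cells and 261 CPM in the Ly6i, Chil1 and Gpnmb gate. Scd1 had 141 CPM with tamoxifen and 140 with oil, a log2 ratio of 0.01 (-0.19 to 0.20), which is 6.52 times (tamoxifen) and 5.99 times (oil) its level in the next gate. It was found in 22.7% (18.7 to 27.0) of tamoxifen and 23.6% (18.2 to 29.6) of oil cells after thinning, against 0.485% and 0% of C1q macrophage gate cells. In cells of 1 gate only the lead over the next gate was 1.25 times with tamoxifen and 14.2 times with oil; the next gate with tamoxifen was that of Ly6i, Chil1 and Gpnmb, where 1 barcode held every Scd1 UMI. No B cell held more than 3.02% of the Scd1 UMIs of its library's gate. The ratio of sterol to fatty acid arm UMIs was 1.69 with tamoxifen and 1.67 with oil in B cells, the lowest of the gates in both libraries, and 8.19 with tamoxifen and 10.1 with oil in the Ccr7 and Fscn1 gate, the highest.

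**Figure D4:**
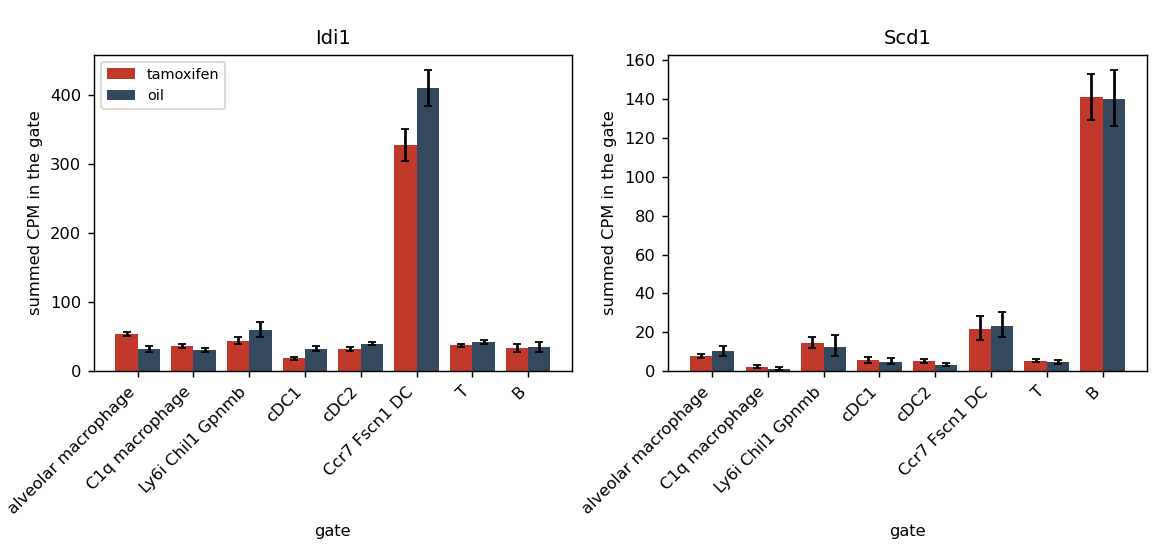
Summed CPM of Idi1 (left) and Scd1 (right) in each gate for tamoxifen (red) and oil (dark blue), with exact 95% Poisson intervals as bars. Idi1 reaches 327 CPM with tamoxifen and 409 with oil in the Ccr7 and Fscn1 gate and Scd1 141 and 140 CPM in the B gate, each several times its level in any other gate.

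Over all cells of each gate, several other members kept 1 leading gate in both libraries. Ebp and Fads1 were highest in the C1q macrophage gate, Mvk and Sc5d in T cells and Srebf2 in the cDC1 gate, and in all 12 of 30 members led in the same gate in tamoxifen and oil. The lead was small for some: with oil, the first gate of Mvk stood 1.01 times above its second and that of Sc5d 1.04 times. The second gate of Ebp and Fads1 was that of Mgl2 and Cd209a. It also held 879 of 1262 tamoxifen and 1059 of 1221 oil cells of the C1q macrophage gate. In oil cells of 1 gate only, Ebp (83.6 CPM, 12 UMIs) and Sc5d (76.6 CPM, 11 UMIs) were highest in the Ly6i, Chil1 and Gpnmb gate instead. The gate that led most often differed: with tamoxifen 15 members were highest in the alveolar macrophage gate and 2 in the Ly6i, Chil1 and Gpnmb gate, whereas with oil none was highest in the first and 17 were in the second. The 2 gates overlap, as 74.5% of oil cells of the Ly6i, Chil1 and Gpnmb gate also passed the alveolar macrophage gate. In cells of 1 gate only the alveolar macrophage gate led for 13 members with tamoxifen and 5 with oil. The Ly6i, Chil1 and Gpnmb gate then led for 6 with tamoxifen and 13 with oil, where it had 17 oil cells. No such counts are given for all genes, so these counts of leading gates describe the members alone.

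**Figure D5:**
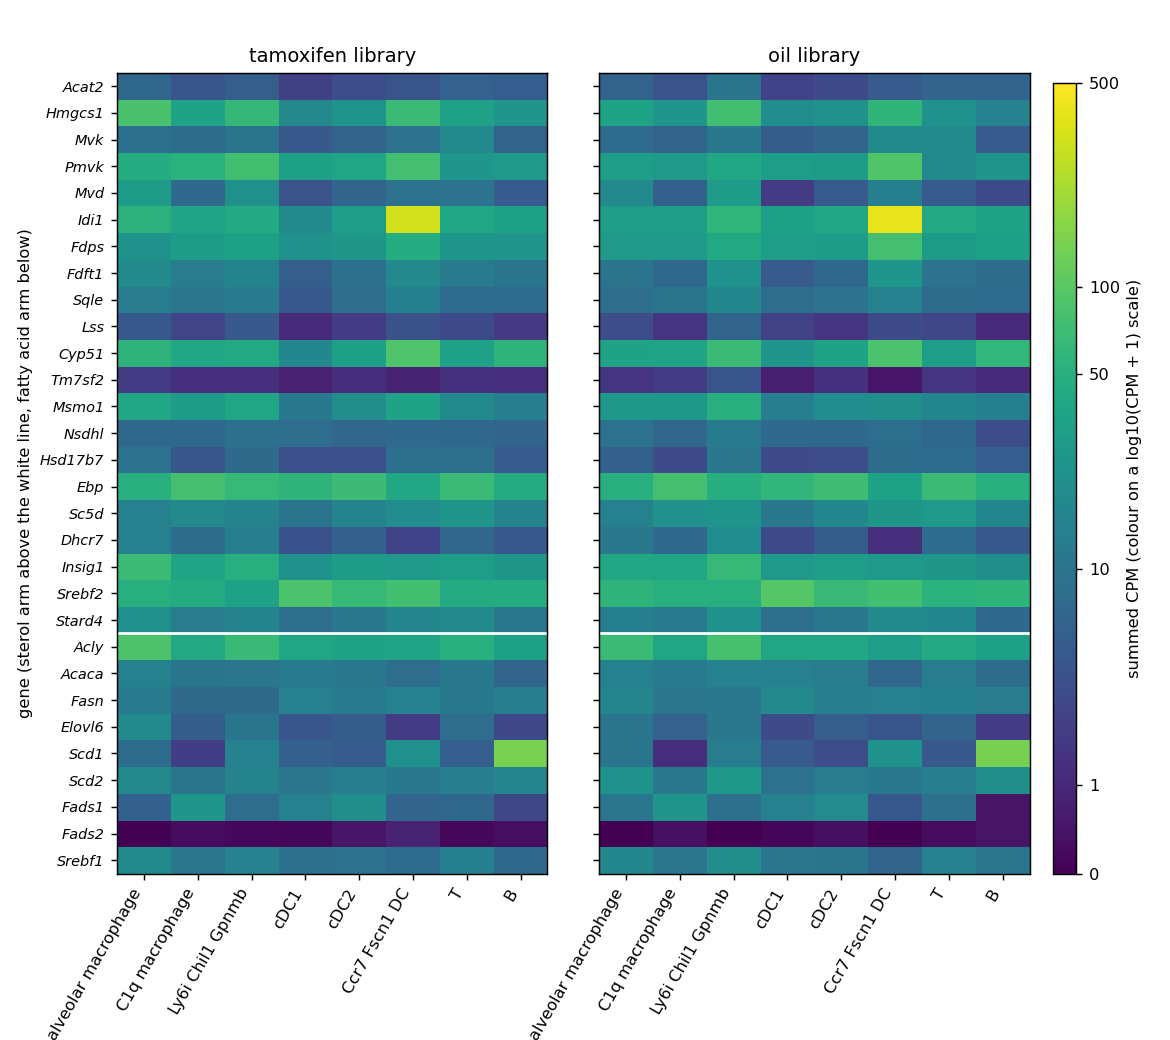
Summed CPM of each member (rows, sterol arm above the white line) in each gate (columns) of the tamoxifen library (left) and the oil library (right), coloured on a log10(CPM + 1) scale. Along its own row Idi1 is brightest in the Ccr7 and Fscn1 gate, at 327 CPM with tamoxifen and 409 with oil, and Scd1 in the B gate, at 141 CPM with tamoxifen and 140 with oil.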

How the data were processed

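For each library the authors deposited UMI counts, not normalized, by gene and barcode. Cell Ranger 5.0.1 and mm10 are named in the submitters' processing notes. Libraries were 10x 3′ v3, per the labels. Barcodes with at least 300 genes and under 10% mitochondrial UMIs were kept. Gates needed, in UMIs, Krt79 plus Plet1 at 2, C1qa plus C1qb at 5, Ly6i, Chil1 plus Gpnmb at 3, Xcr1 plus Clec9a at 2, Mgl2 plus Cd209a at 1, Ccr7 and Fscn1 at 1 each, Cd3d, Cd3e plus Cd3g at 1, or Cd79a at 2. UMIs were summed per gate and library and divided by the gate's total (CPM), and log2 ratios carry exact conditional 95% intervals. These were tried only on simulated Poisson counts, the model they assume. That trial cannot show how they hold for UMIs clustered within cells. Doublets stayed in, and removing the highest Scrublet scores (0.8% per 1000 barcodes) is an alternative. Members with at least 30 UMIs, a 1.5-fold difference and an interval without 0, up to 8 each way per gate, and the 3 with most UMIs per arm are named, and others are added for their role. Members and lists were chosen with earlier results of these data known. Promoters are RefSeq, gene matches by symbol. Python 3.11.15, NumPy 2.4.6, SciPy 1.17.1 and scanpy 1.11.5 were used.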

Additional observations from a re-analysis of the deposited data

Results flagged for a closer look

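Cells of the 2 sexes, called from Xist and Y-linked UMIs, went opposite ways in 3 summed ratios, each with an interval that leaves out 0. The difference between sexes was not tested, and 1 library per group gives no spread between animals. In cells of the alveolar macrophage gate only, the fatty acid arm log2 ratio, tamoxifen over oil, was -0.24 (-0.44 to -0.04) in female cells and 1.16 (0.75 to 1.58) in male cells, of which there were 82 with tamoxifen and 42 with oil. A single male tamoxifen barcode held 91 of the 96 Scd1 UMIs and 10 of the 20 Fasn UMIs there, and carried 2136 UMIs of alveolar type 2 markers. Without barcodes of 100 or more such UMIs the male value was 0.28 and the female value -0.24. Among the female cells, 1 of the 92 oil barcodes held 22 of the 47 Scd2 UMIs (46.8%), and no female value without it is given. In the C1q macrophage gate the fatty acid arm stood at -0.18 (-0.32 to -0.04) in female and 0.40 (0.18 to 0.62) in male cells. In the Ly6i, Chil1 and Gpnmb gate the sterol arm stood at -0.36 (-0.45 to -0.26) in female and 0.37 (0.04 to 0.71) in male cells, with 42 male cells in tamoxifen and 18 in oil.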

How the results depend on the processing

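The sterol arm log2 ratio of the alveolar macrophage gate (0.48) stayed above 0 in the 22 alternatives tried, from 0.37 to 1.05. It was 0.93 in cells of 1 gate, 0.56 without cycling cells, 0.37 with median-of-ratios scaling, which shifts all genes of the gate by 0.12, and 0.39 without the most abundant member. Several alternatives were added after seeing the data. In cells of 1 gate these gave 0.85 in female, 0.92 in male, 0.94 without nominal doublets, 1.05 thinned, 0.88 with median-of-ratios scaling, 0.86 without the most abundant member, and, without cells of 100 or more alveolar type 2 UMIs, 0.93 in all, 0.85 in female and 0.89 in male cells. The fatty acid arm there (0.09) had no stable sign: 0.47 in male cells, -0.02 with median-of-ratios scaling, -0.11 without its most abundant member, and in cells of 1 gate -0.16 without that member, -0.24 in female cells with or without the alveolar type 2 cells, and 1.16 in male cells.

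In the C1q macrophage gate the sterol arm was 0.09 with median-of-ratios scaling, and the fatty acid arm -0.18 in female and 0.40 in male cells. In the Ly6i, Chil1 and Gpnmb gate the sterol arm (-0.25) was -0.59 in cells of 1 gate, -0.36 in female, 0.37 in male, -0.14 without cycling cells, -0.41 without cells of the alveolar macrophage gate, -0.14 with median-of-ratios scaling and -0.37 without its most abundant member, and the fatty acid arm (-0.35) was 0.98 in cells of 1 gate. The sterol arm was -0.08 with median-of-ratios scaling in the Mgl2 and Cd209a gate. In the Ccr7 and Fscn1 gate it was -0.00 in cells of 1 gate, -0.45 in female and 0.15 in male cells. In T cells it was -0.02 in cells of 1 gate, -0.08 without cells of the alveolar macrophage gate, -0.00 as a mean over cells and 0.00 with median-of-ratios scaling, and the fatty acid arm -0.09 without cells of the alveolar macrophage gate and -0.07 without its most abundant member. In B cells the sterol arm was -0.19 in cells of 1 gate, -0.77 in male cells and -0.14 with median-of-ratios scaling, and the fatty acid arm -0.59 in male cells and -0.22 as a mean over cells.

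Under median-of-ratios scaling the medians over members were 0.44 (sterol) and -0.29 (fatty acid) in the alveolar macrophage gate, and for the sterol arm 0.07 in the C1q macrophage, -0.35 in the Ly6i, Chil1 and Gpnmb, -0.08 in the Mgl2 and Cd209a, -0.02 in the T and -0.15 in the B gate. With no minimum of UMIs the sterol median was -0.10 in the Ccr7 and Fscn1 gate, and the fatty acid median 0.01 in B cells, also with a minimum of 50. The sterol level of the Ccr7 and Fscn1 gate with tamoxifen was 1068 CPM in cells of 1 gate, that level without Idi1, an alternative also added later, was 572 CPM with tamoxifen and 612 with oil, and the fatty acid level of B cells, as a mean over cells, 267 CPM with tamoxifen and 311 with oil. The log2 ratio of shares of alveolar macrophage gate cells with a sterol UMI (0.31) was 0.15 with thinning to 3000 UMIs and 0.02 with none.

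Of 28 named pairs of member and gate, 18 kept their sign throughout. In the alveolar macrophage gate Mvd became -0.14 when thinned and -0.48 when thinned in cells of 1 gate. In male cells of that gate Stard4 was -0.04, Elovl6 -0.23 and Fads1 0.91. In male cells of 1 gate Msmo1 was -0.04 and Elovl6 -0.87, or -0.27 and -0.81 without the alveolar type 2 cells, and Fads1 was 1.38 in female cells of 1 gate either way. In the Ly6i, Chil1 and Gpnmb gate Acat2 was 0.85 when thinned, Cyp51 0.04 in male cells and Stard4 1.75 in cells of 1 gate. Fdps was 1.33 in male cells of the Ccr7 and Fscn1 gate, and Hmgcs1 -0.16 in B cells of 1 gate. The cause of these changes was not tested. No paired analysis was possible because each group has 1 library, which also left no replicate to leave out.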

Other observations

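Scd1 showed how few barcodes can carry a member. In cells of the Ly6i, Chil1 and Gpnmb gate only, all 88 Scd1 UMIs of the tamoxifen library lay in 1 of 58 barcodes, which also held 17 of the 21 Fasn UMIs and 2211 UMIs of alveolar type 2 markers. In the Mgl2 and Cd209a gate, 18 of the 27 Scd1 UMIs in tamoxifen cells of that gate only lay in 1 barcode with 2580 such UMIs. B cells differed from this: Scd1 was spread over 154 of 267 tamoxifen and 97 of 155 oil cells of that gate only.

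Abcg1 and Lpin1 had higher ratios over all cells of the T gate than in cells of that gate only. In the T gate Abcg1, a cholesterol exporter, had 213 CPM with tamoxifen and 71.6 with oil, a log2 ratio of 1.57 (1.49 to 1.65), and -0.08 in cells of that gate only. Lpin1 had 73.1 CPM with tamoxifen and 23.8 with oil there, or 1.62 (1.48 to 1.76), and -0.03 in cells of that gate only. In the cDC1 gate Abcg1 stood at 1.62 (1.43 to 1.81), and at -0.14 in cells of that gate only. Of the 12 LXR genes in the T gate, 8 were higher and 4 lower over all cells, with a median of 0.10, and 3 were higher and 9 lower in cells of that gate only, with a median of -0.12. Over all cells of the T gate, the median was 0.05 over the 12270 genes with at least 20 UMIs in each library. No such median is given for cells of that gate only, nor the share of all genes that were higher, so the LXR counts describe that list alone.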
